A study of Mus musculus with 2 samples.

Results

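Of the sodium pump (Na+/K+-ATPase) subunit genes, 3 of the 32227 genes counted were followed across the cell classes of the thick ascending limb (TAL) of the mouse kidney. They are Atp1b1 and Atp1b3, which encode β subunits, and Fxyd2, which encodes the γ subunit. The genes were chosen by name, and the classes were set from counts of other genes. Nuclei came from male B6 mice, labelled wild type and with an age of 12 whose unit is not given. According to the study's methods, an NKCC2-CreERT2 driver and a Sun1-sfGFP reporter tagged TAL nuclei after tamoxifen in both groups, and tagged nuclei were sorted by fluorescence. A superficial strip of each kidney slice formed the cortex library and all remaining tissue, deep cortex included, the medulla library. There was 1 library per region and no control without the transgenes, and how many animals were pooled is not given in the sources used here, so the region cannot be told apart from the library and nothing could be tested over animals.

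The pump is built from a catalytic α subunit, a β subunit that carries the α subunit to the membrane and stabilizes it, and a small FXYD protein that tunes its affinity for ions. It sits in the basolateral membrane, where it exports sodium and keeps the cell's sodium low. In the TAL this gradient drives the apical cotransporter NKCC2 (Slc12a1), and the TAL is among the nephron segments richest in pump. Fxyd2 is the FXYD member known best from kidney tubules. It lowers the sodium affinity of the pump, and dominant mutations in it cause renal magnesium wasting.

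The filtered cortex matrix summed to 16457300 counts over 5442 barcodes and that of the medulla to 20947211 over 8121, with medians of 2427 and 2430 counts and 0 shared barcodes. At least 10 Slc12a1 counts were present in 5218 (95.9%) and 7967 (98.1%). Among these, barcodes with 3 or more counts of Nos1 and Pappa2 together were taken as macula densa (MD), the sensor cells of tubular salt at the end of the TAL. Of the rest, those with 2 or more of Tmem52b were taken as TAL-β, then those with 2 or more of Tmem207 and Gpc5 together as TAL-γ, and the remainder as TAL-α. This gave 2824 α, 1493 β, 248 γ and 653 MD nuclei in cortex and 3776 α, 571 β, 3542 γ and 78 MD nuclei in medulla. The class genes Nos1, Pappa2, Tmem52b, Tmem207, Gpc5 and Slc12a1 are not members.

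The names were checked against markers that the rule did not use. All 8 MD markers were highest in the MD class of both libraries, 5 of 6 α markers were highest in the α class of both, and 6 of 8 β markers in cortex and 8 of 8 in medulla were highest in the β class. Of the γ markers, 7 of 8 in cortex and 5 of 8 in medulla were highest in the γ class. The cortical γ nuclei nevertheless carried 153 CPM of Cldn16 and 144 CPM of Kcnj10, both close to the β class, and 53.2% of them lay in a deposited cluster made up mostly of β nuclei, so for cortex the name holds only as the marker rule. Transcripts of other cells were present too. The summed level of the 5 proximal tubule markers was 1620 to 3104 CPM in the cortical classes and 318 to 519 CPM in the medullary ones. Barcodes with 3 or more counts of any of 22 markers of other cell types made up 9.80% to 26.7% of the cortical classes and 1.28% to 4.90% of the medullary classes, and were more than 1.5 times as deep as the rest.

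Levels are given as CPM, a gene's summed counts over the nuclei of a group set against the group's total. Their 95% intervals are exact Poisson intervals, those of ratios are conditional binomial and those of shares Clopper-Pearson, and all cover counting error only. In a comparison, a gene is called when its ratio is at least 1.5-fold among genes with 50 or more counts in both classes together. The kit captures the 3′ ends of transcripts, so CPM are compared between classes for each gene and not between genes. Fewer nuclei of a kind inside a class and less RNA per nucleus cannot be told apart in such sums.

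Atp1b1 (ENSMUSG00000026576, chromosome 1 from 164264678 to 164285957 of GRCm39, minus strand) encodes the common β subunit of the pump in epithelia. Atp1b3 (ENSMUSG00000032412, chromosome 9 from 96214674 to 96246814, minus strand) encodes another β subunit with a broad tissue distribution. The bases from 200 to 51 before a RefSeq transcription start are shown for both, the only members found in the promoter table used. These stretches come from RefSeq's promoter table (GRCm38.p6). Each matched a single place in GRCm39, at chr1:164285975-164286124 and chr9:96246535-96246684 on the minus strand. The annotated Atp1b3 gene begins further upstream, so its stretch lies inside the gene but outside its exons, and another RefSeq start of Atp1b3, whose stretch lies in exons, is not shown. Capitals mark the GC box GGGCGG and the CCAAT box on either strand.
Atp1b1: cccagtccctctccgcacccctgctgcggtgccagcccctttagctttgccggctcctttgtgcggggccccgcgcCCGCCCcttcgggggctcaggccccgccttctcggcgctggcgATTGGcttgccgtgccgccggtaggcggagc
Atp1b3: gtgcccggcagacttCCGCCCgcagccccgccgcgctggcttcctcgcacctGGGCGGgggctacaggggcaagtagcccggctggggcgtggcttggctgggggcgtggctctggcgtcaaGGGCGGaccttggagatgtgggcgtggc
Both stretches were 74.7% G or C, against a median of 52.7% over 32851 promoters. The Atp1b1 stretch held 1 GC box and 1 CCAAT box, both on the opposite strand, and the Atp1b3 stretch held 3 GC boxes, of which 1 was on the opposite strand. In stretches of the same length, 22.3% of all promoters held a GC box and 23.5% a CCAAT box. The letters TATAAA, also searched on both strands, were in neither stretch and in 6.61% of all promoters. No found motif overlapped another. Fxyd2 (ENSMUSG00000059412) lies on chromosome 9 from 45310967 to 45322004 of GRCm39, on the plus strand.

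**Figure D1:**
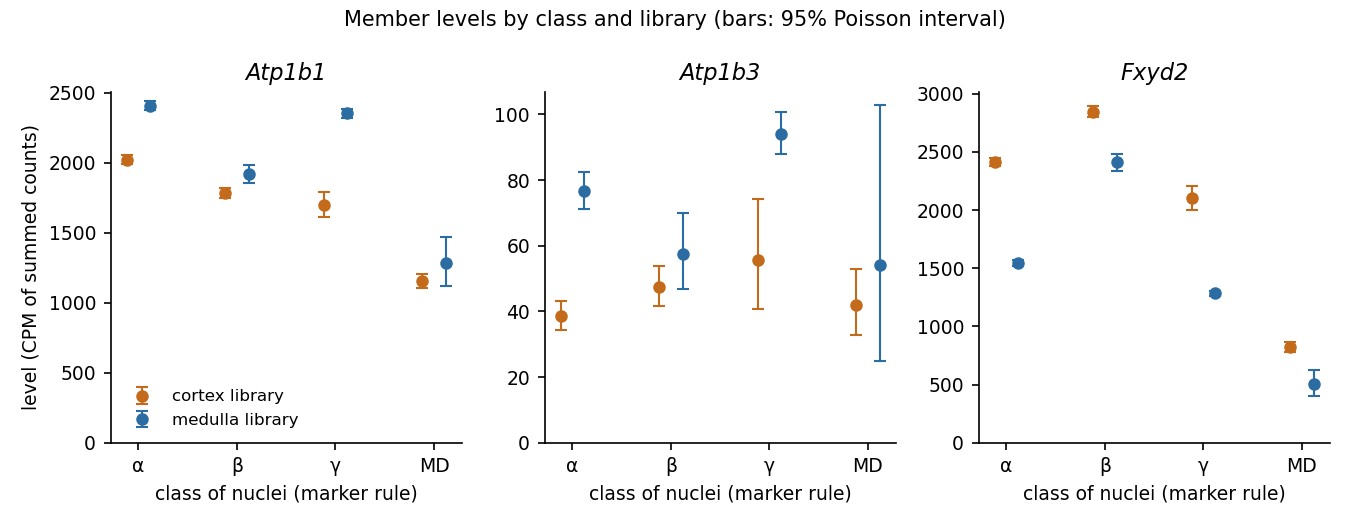
Level of Atp1b1, Atp1b3 and Fxyd2 in CPM (y axis, from 0) in the α, β, γ and MD classes (x axis) of the cortex (orange) and medulla (blue) libraries, with 1 library per point and bars for the 95% Poisson interval. Fxyd2 was highest in β nuclei and lowest in MD nuclei of both libraries, while Atp1b1 was lowest in MD nuclei and Atp1b3 reached 94.1 CPM in medullary γ nuclei.

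Fxyd2 differed most between the classes. In cortex its level was 2416 CPM in α, 2844 CPM in β, 2103 CPM in γ and 824 CPM in MD nuclei. The medullary values were 1546 CPM in α, 2412 CPM in β, 1285 CPM in γ and 506 CPM in MD nuclei. The order was β, α, γ and MD in both libraries, no neighbours in it had overlapping intervals, and each medullary class lay below the same class of the cortex. For γ this holds by the marker rule only, since cortical γ nuclei lay mostly in a cluster of β nuclei. At least 1 Fxyd2 count was present in 95.7% of α, 99.3% of β, 96.0% of γ and 62.5% of MD nuclei in cortex, and in 91.4%, 98.4%, 90.2% and 53.8% in medulla.

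Single nuclei spread widely around these sums. In cortex the median nucleus held 6 Fxyd2 counts in the α class (5th to 95th percentile 1 to 15), 9 in the β class (2 to 20) and 1 in the MD class (0 to 11). In medulla the medians were 3 in α (0 to 10), 7 in β (1 to 16), 3 in γ (0 to 9) and 1 in MD nuclei (0 to 5). The ranges of all classes overlapped. MD nuclei were also shallower, with median depths of 1883 and 1996 counts against 2425 and 2404 in α nuclei. After each nucleus was thinned to 1000 counts, the mean was 2.54 Fxyd2 counts in α, 3.23 in β and 0.651 in MD nuclei of the cortex and 1.52, 2.54 and 0.436 in the medulla, so the order stayed at equal depth.

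The first comparison set β nuclei, the calcium- and magnesium-reabsorbing kind with Cldn16, against α nuclei, which carry Cldn10 and reabsorb mainly sodium chloride. Fxyd2 was 1.18 times as high in β as in α nuclei of the cortex (95% interval 1.15 to 1.20), and 20.9% of all genes had a higher ratio. In medulla it was 1.56 times as high (1.51 to 1.61), a ratio that 5.74% of genes exceeded. This ratio is against all medullary α nuclei, which were not uniform. Those of deposited clusters 1, 3 and 4 had 2000, 1100 and 1030 CPM of Fxyd2, against 2412 CPM in medullary β nuclei. The part of this mix in the medullary ratio was not tested. Markers of the distal convoluted tubule, the next segment, moved with Fxyd2. Over 3 genes they summed to 374 CPM in β and 87.4 CPM in α nuclei of the cortex. In medulla they summed to 210 and 6.61 CPM. Barcodes with Slc12a3 and fewer than 10 Slc12a1 counts, 46 in cortex and 10 in medulla, had 911 and 711 CPM of Fxyd2. These levels lay below those of β and of α nuclei, and the part of such cells in the ratio was not tested. Without barcodes that held 3 or more counts of markers of other cells the ratio was 1.33 in cortex and 1.60 in medulla. With classes taken from the deposited clusters the cortical ratio was 1.54. Each cluster was named MD, β or γ where the commonest of these made up at least 40% of its nuclei, and otherwise α. The α group so made included clusters 6 and 7, with 1193 and 1362 CPM of Fxyd2. They had 3436 and 4287 CPM of Slc34a1, a proximal tubule marker, and their part was not tested. The cortical α class of the marker rule held 117 and 126 nuclei of deposited clusters 2 and 4, both made up mostly of β nuclei. These α nuclei had 3232 and 4083 CPM of Fxyd2. The largest cortical α group, 1310 nuclei of cluster 1, had 3152 CPM, also above the 2844 CPM of cortical β nuclei. α nuclei of clusters 3, 5, 6, 7, 8, 9 and 11 lay below it, with 537, 1189 and 1280 CPM in clusters 3, 6 and 7. The part of this mix in the cortical ratio was not tested. Of the members, 0 of 3 were past 1.5-fold in either direction in cortex, where 9.59% of genes were. In medulla 1 of 3, Fxyd2, was at least 1.5-fold higher, against 6.97% of genes.

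Atp1b1 was lower in β than in α nuclei, by ratios of 0.883 (0.861 to 0.906) in cortex and 0.798 (0.770 to 0.828) in medulla. With classes from the deposited clusters the cortical ratio was 1.02, on the other side of 1. Clusters 6 and 7, counted as α there, had 1312 and 1390 CPM of Atp1b1, and their part was not tested. Atp1b3 had ratios on opposite sides of 1, at 1.23 in cortex (1.04 to 1.46, 248 against 307 counts) and 0.751 in medulla (0.604 to 0.926, 101 against 718 counts). The medullary value was 1.10 after thinning. It was set against all medullary α nuclei, which were not uniform. Medullary β nuclei had 57.5 CPM of Atp1b3, and α nuclei of deposited clusters 1, 3 and 4 had 48.8, 92.0 and 130 CPM. α nuclei of smaller clusters lay on both sides of the β level. The part of this mix in the ratio was not tested. The median of all genes was 1.01 in cortex and 0.986 in medulla.

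Fxyd2 and Atp1b1 were lowest in MD nuclei. Fxyd2 was at 0.341 of the α level in cortex (0.323 to 0.360), and 1.76% of all genes had a lower ratio. The medullary ratio was 0.327 (0.261 to 0.405), from 84 counts, and 12.7% of genes were lower. Atp1b1 was at 0.571 of the α level in cortex (0.544 to 0.599) and at 0.533 in medulla (0.464 to 0.610). For Atp1b3 the ratio was 1.09 in cortex (0.828 to 1.42) and 0.708 in medulla (0.322 to 1.35), where MD nuclei held 9 counts, so neither interval excluded 1. After thinning these ratios were 0.880 (0.542 to 1.37) and 0.330 (0.0398 to 1.20), the latter from 2 MD counts. With deposited clusters the medullary one was 0.394 (0.144 to 0.862), from 6 MD counts. In cortex 2 of 3 members were at least 1.5-fold lower, against 12.3% of genes. In medulla the same count was 2 of 3, against 28.8% of genes, with 78 MD nuclei. The cortical Fxyd2 ratio was 0.222 both with doublets removed and with deposited clusters.

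The MD level can be set beside nuclei with few Slc12a1 counts. Barcodes with proximal tubule markers and at most 2 Slc12a1 counts, 91 in cortex (median depth 3435) and 98 in medulla (4589), held 345 and 176 CPM of Fxyd2, 886 and 796 CPM of Atp1b1 and 38.3 and 30.4 CPM of Atp1b3. Of these barcodes 64.8% and 54.1% had an Fxyd2 count, at depths above those of MD nuclei, where the shares were 62.5% and 53.8%. Shares at unlike depth are read neither as a difference nor as equal levels. In CPM, MD nuclei held 824 and 506 of Fxyd2. The proximal tubule also expresses the pump, so these barcodes are no measure of free RNA alone. Slc12a1 in them was 95.8 and 107 CPM, against 13445 and 21294 CPM in unfiltered barcodes with 1 to 50 counts, although the former were chosen for few Slc12a1 counts. The part of free RNA in the MD level was examined only by subtracting 10% of each class's counts with the profile of the unfiltered barcodes, which gave an Fxyd2 ratio of 0.259 in cortex and 0.240 in medulla.

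**Figure D2:**
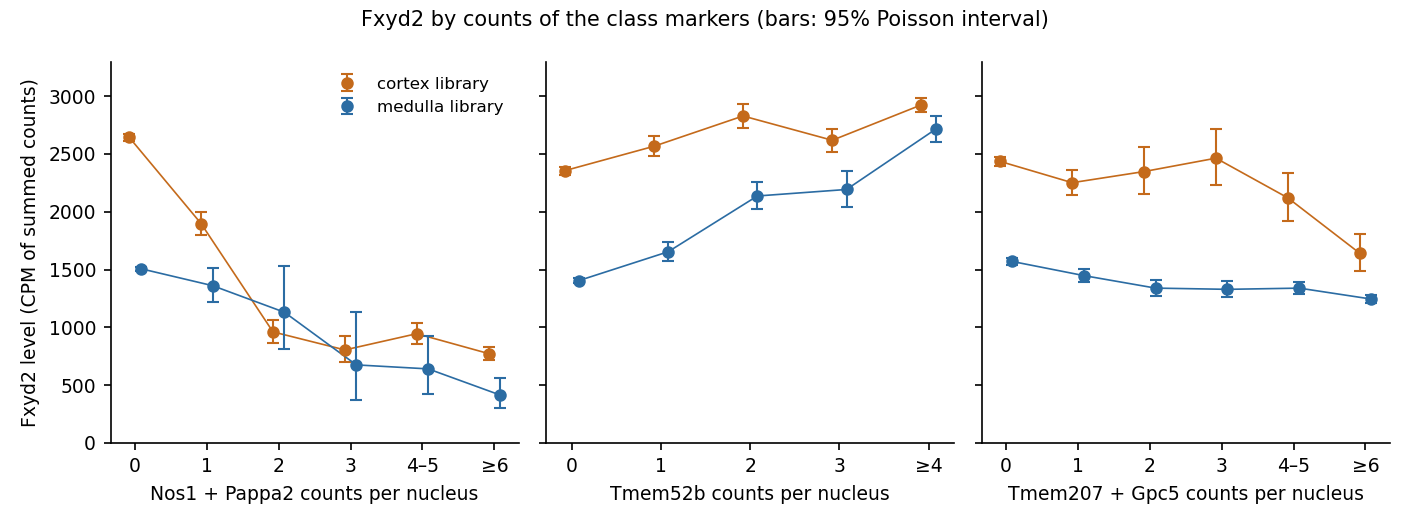
Fxyd2 level in CPM (y axis, from 0) against the number of class marker counts per nucleus (x axis), for Nos1 and Pappa2 in all nuclei of the rule, for Tmem52b in nuclei outside the MD class and for Tmem207 and Gpc5 in nuclei of neither the MD nor the β class. Orange is cortex, blue is medulla and bars are 95% Poisson intervals. Fxyd2 went from 2644 to 772 CPM in cortex with Nos1 and Pappa2, and from 1404 to 2714 CPM in medulla with Tmem52b.

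Fxyd2 was read on both sides of each class limit. In cortex Fxyd2 was at 2644 CPM in nuclei with 0 Nos1 and Pappa2 counts, 1897 CPM at 1 count and 960 CPM at 2 counts (just outside the MD limit). It was at 804 CPM at 3 counts (just inside), 945 CPM at 4 or 5 and 772 CPM at 6 or more. The intervals just outside and just inside overlapped (864 to 1064 and 695 to 925 CPM). Nuclei with 2 such counts, placed in other classes by the rule, thus had a level near that of MD nuclei. In medulla Fxyd2 went from 1404 CPM at 0 Tmem52b counts to 1654 CPM at 1 (just outside the β limit), 2136 CPM at 2 (just inside) and 2714 CPM at 4 or more. The cortical nuclei went from 2355 to 2925 CPM over the same steps, with 2566 CPM just outside and 2829 CPM just inside. At 3 Tmem52b counts they had 2618 CPM. For Tmem207 and Gpc5 in medulla, nuclei just outside had 1448 CPM and nuclei just inside 1339 CPM, and in cortex 2251 and 2348 CPM. At the Slc12a1 limit, the 30 cortical barcodes with 8 or 9 counts had 1717 CPM of Fxyd2 and the 45 with 10 or 11 had 1723 CPM. In medulla only 3 and 7 barcodes lay there.

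Atp1b1 and Atp1b3 were read over the same bins. With Nos1 and Pappa2 in cortex, Atp1b1 went from 1937 CPM at 0 counts to 1397 CPM at 2, 1214 CPM at 3, 1263 CPM at 4 or 5 and 1086 CPM at 6 or more. With Tmem52b in medulla it went from 2396 to 1938 CPM, opposite to Fxyd2. At the cortical Slc12a1 limit Atp1b1 was 2015 CPM just outside and 1482 CPM just inside, with intervals that overlapped (1697 to 2375 and 1257 to 1735 CPM). Atp1b3 in the medullary Tmem52b bins went from 85.6 CPM at 0 counts to 78.4, 68.5, 61.8 and 47.3 CPM.

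Atp1b1 varied least, with a range over the groups of 1.06 on the log2(CPM + 1) scale against 1.27 for Atp1b3 and 2.49 for Fxyd2. In cortex its level was 2020 CPM in α, 1784 CPM in β, 1700 CPM in γ and 1153 CPM in MD nuclei. The medullary levels were 2406 CPM in α, 1921 CPM in β, 2352 CPM in γ and 1283 CPM in MD nuclei. The intervals of β and γ nuclei overlapped in cortex, as did those of α and γ nuclei in medulla (2375 to 2438 and 2320 to 2383 CPM). At least 1 count was found in 97.3% to 98.9% of nuclei of every class but MD, where it was 81.5% in cortex and 83.3% in medulla.

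Atp1b3 was sparse, with at most 20.0% of nuclei of any class holding a count. Its level in cortex was 38.5 CPM in α (307 counts), 47.4 CPM in β (248 counts), 55.8 CPM in γ (46 counts) and 42.0 CPM in MD nuclei (70 counts). In medulla it was 76.6 CPM in α (718 counts), 57.5 CPM in β (101 counts), 94.1 CPM in γ (852 counts) and 54.2 CPM in MD nuclei (9 counts). In cortex neighbours in this order overlapped in their intervals. In medulla γ lay above α, and α above β, without overlap, while the MD interval (24.8 to 103 CPM) covered all of them.

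γ nuclei, which as a class held 211 CPM of Cldn10 and 109 CPM of Kcnj10, were compared in medulla. Of these nuclei 10.1% and 6.80% lay in deposited clusters 4 and 3, made up mostly of α nuclei. Kcnj10 stood at 0.865 and 3.11 CPM in those clusters. Fxyd2 was at 0.831 of the α level (0.811 to 0.852) and Atp1b1 at 0.977 (0.959 to 0.996), while Atp1b3 was 1.23 times as high (1.11 to 1.36). These ratios are against all α nuclei, which were not uniform. The γ class had 1285 CPM of Fxyd2, against 2000 CPM in α nuclei of deposited cluster 1. Those of clusters 3 and 4 had 1100 and 1030 CPM. Atp1b3 stood at 94.1 CPM in γ, and at 48.8, 92.0 and 130 CPM in these α nuclei. α nuclei of smaller clusters lay on both sides for both genes. The number of members past 1.5-fold in either direction was 0 of 3, with 7.79% of all genes past it. Against β nuclei the distance was larger. Fxyd2 was at 0.533 of the β level (0.515 to 0.552), and 4.41% of genes had a lower ratio. Atp1b3 was 1.64 times as high as in β nuclei (1.33 to 2.03), and Atp1b1 was 1.22 times as high (1.18 to 1.27). Of the members 1 of 3, Atp1b3, was at least 1.5-fold higher, against 9.04% of genes, and 1 of 3, Fxyd2, at least 1.5-fold lower, against 9.68%. The Atp1b3 ratio was 1.11 after thinning (0.818 to 1.53). Among medullary α nuclei, clusters 4 and 3 against cluster 1 gave ratios of 0.515 and 0.550 for Fxyd2. The same comparisons gave 2.66 and 1.88 for Atp1b3. The study proposes that medullary β cells lie in the outer stripe of the outer medulla and γ cells in the inner stripe. Depth in the kidney and class thus cannot be told apart in the γ to β ratios.

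Between the libraries, the members moved in different directions within one class. In α nuclei the medulla to cortex ratio was 0.640 for Fxyd2 (0.626 to 0.654), 1.19 for Atp1b1 (1.17 to 1.22) and 1.99 for Atp1b3 (1.74 to 2.28). Only 1.60% of genes exceeded the Atp1b3 ratio, and 15.0% lay below that of Fxyd2. The median of all genes was 0.950. At least 1.5-fold higher was 1 of 3 members, against 4.79% of genes, and at least 1.5-fold lower was 1 of 3, against 16.5%. Without barcodes that held markers of other cells the ratios were 0.562 for Fxyd2 and 1.09 for Atp1b1, while Atp1b3 had 39.9 CPM in cortex and 78.0 CPM in medulla. The α class was mixed in both libraries. Its largest deposited cluster in cortex had 3152 CPM of Fxyd2, 2340 CPM of Atp1b1 and 36.9 CPM of Atp1b3. The largest in medulla had 2000, 2299 and 48.8 CPM. Atp1b3 reached 92.0 and 130 CPM in α nuclei of medullary clusters 3 and 4. The part of this mix in the ratios was not tested.

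β nuclei of the libraries lay closer. Their medulla to cortex ratio was 0.848 for Fxyd2 (0.819 to 0.877), 1.08 for Atp1b1 (1.04 to 1.12) and 1.21 for Atp1b3 (0.952 to 1.53), and 0 of 3 were past 1.5-fold in either direction, with 19.8% of genes past it. The Atp1b1 ratio was 0.992 without barcodes that held markers of other cells and 0.978 with deposited clusters. In MD nuclei Fxyd2 had a ratio of 0.614 (0.487 to 0.766), Atp1b1 of 1.11 (0.961 to 1.28) and Atp1b3 of 1.29 (0.567 to 2.59). There 1 of 3 members was at least 1.5-fold lower, against 18.8% of genes. The MD ratio of Fxyd2 was 0.959 with deposited clusters. That of Atp1b3 was on the other side of 1 with doublets removed (0.925), after thinning (0.698) and with deposited clusters (0.750). These rested on 6, 2 and 6 Atp1b3 counts in medullary MD nuclei.

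**Figure D3:**
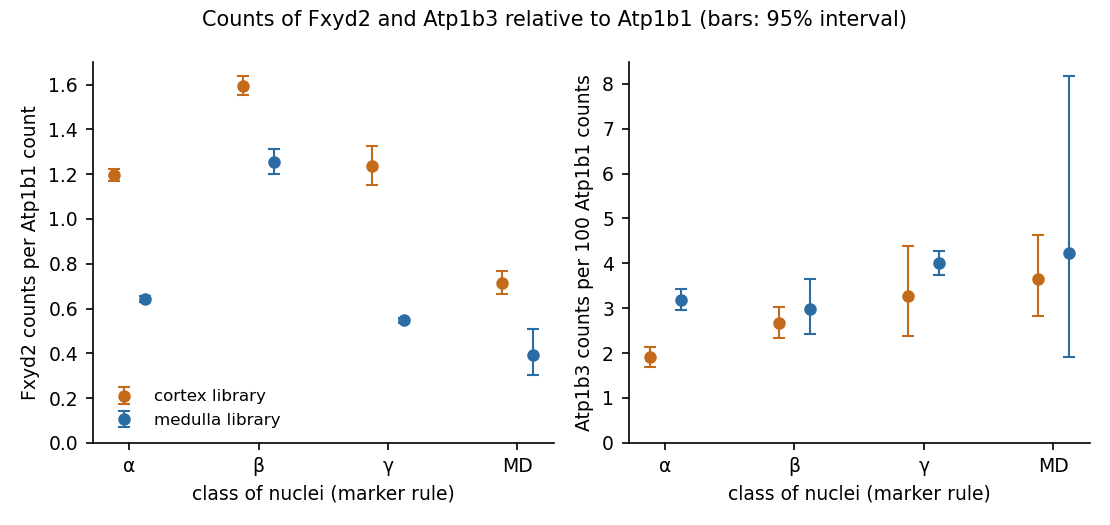
Fxyd2 counts per Atp1b1 count (left) and Atp1b3 counts per 100 Atp1b1 counts (right), both axes from 0, by class (x axis) in cortex (orange) and medulla (blue), with bars for the 95% interval. The left panel runs from 1.59 in cortical β nuclei to 0.394 in medullary MD nuclei, and the right panel from 1.91 in cortical α nuclei to 4.23 in medullary MD nuclei.

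A ratio of members within a class does not depend on how the class is scaled. In cortex there were 1.20 Fxyd2 counts per Atp1b1 count in α nuclei (1.17 to 1.22), 1.59 in β (1.55 to 1.64), 1.24 in γ (1.15 to 1.33) and 0.715 in MD nuclei (0.666 to 0.766). In medulla the values were 0.643 in α (0.629 to 0.656), 1.26 in β (1.20 to 1.31), 0.547 in γ (0.534 to 0.559) and 0.394 in MD nuclei (0.303 to 0.510). β nuclei had the highest value in each library, and every class had a lower value in medulla than in cortex.

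For Atp1b3 the same scale gave 1.91 counts per 100 Atp1b1 counts in α (1.70 to 2.14), 2.66 in β (2.33 to 3.02), 3.28 in γ (2.39 to 4.40) and 3.64 in MD nuclei (2.83 to 4.62) of the cortex. In medulla it gave 3.18 in α (2.95 to 3.43), 2.99 in β (2.43 to 3.65), 4.00 in γ (3.73 to 4.28) and 4.23 in MD nuclei (1.91 to 8.17). Cortical α nuclei had the lowest value, with an interval apart from those of the other classes except for medullary MD nuclei.

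**Figure D4:**
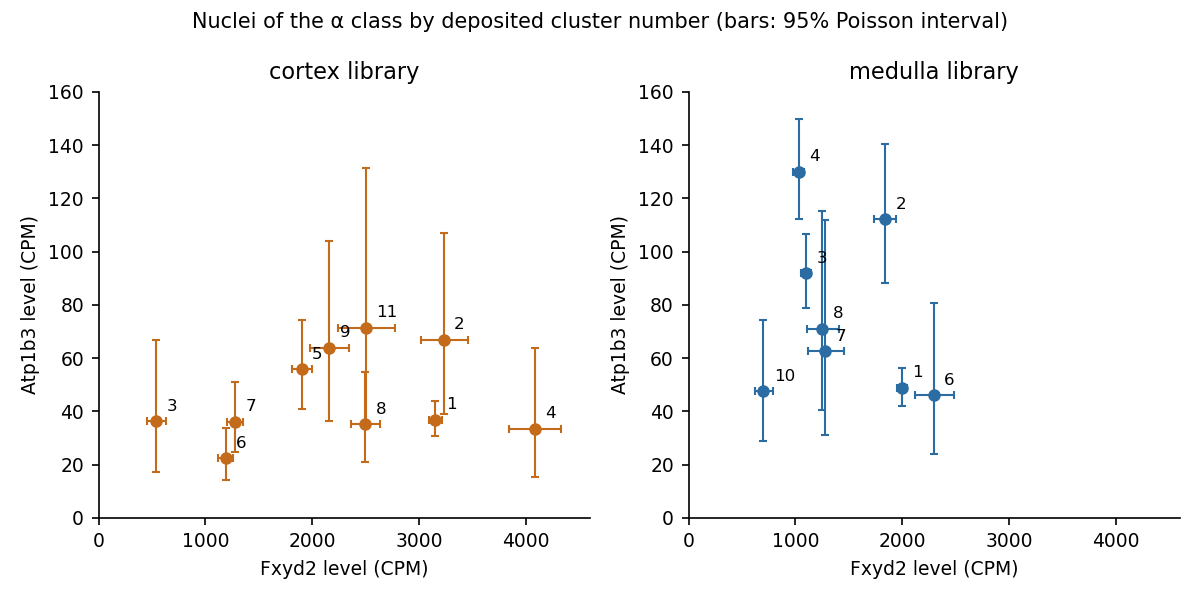
Atp1b3 level (y axis, CPM) against Fxyd2 level (x axis, CPM), both from 0, for α nuclei split by deposited cluster number (printed beside each point) in the cortex (left) and medulla (right) libraries, with bars for 95% Poisson intervals. Medullary clusters 3 and 4 had 92.0 and 130 CPM of Atp1b3 with 1100 and 1030 CPM of Fxyd2, and cluster 1 had 48.8 and 2000 CPM.

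α nuclei were not uniform. The deposited clusters were made by the authors' software, and which genes it used is not given in the sources used here. The members may be among them, so these values are a description. In medulla the largest group of α nuclei, 1489 in cluster 1, had 2000 CPM of Fxyd2, 48.8 CPM of Atp1b3 and 2299 CPM of Atp1b1. The 788 in cluster 3 had 1100, 92.0 and 2503 CPM, and the 644 in cluster 4 had 1030, 130 and 2755 CPM. Cluster 4 against cluster 1 gave ratios of 0.515 for Fxyd2 (0.487 to 0.544), 2.66 for Atp1b3 (2.17 to 3.27) and 1.20 for Atp1b1 (1.15 to 1.24). Cldn16 stood at 94.6 CPM in the α nuclei of cluster 1, 24.3 CPM in cluster 3 and 3.40 CPM in cluster 4.

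In cortex the 1310 α nuclei of cluster 1 had 3152 CPM of Fxyd2 and 36.9 CPM of Atp1b3, and the 363 of cluster 5 had 1901 and 55.9 CPM. Cluster 5 against cluster 1 gave 0.603 for Fxyd2 (0.571 to 0.636) and 1.51 for Atp1b3 (1.06 to 2.14). The 160 α nuclei of cluster 3, where 75.1% of barcodes were MD nuclei, had 537 CPM of Fxyd2, below the MD class itself. The 117 and 126 in clusters 2 and 4, where 71.3% and 75.5% of barcodes were β nuclei, had 3232 and 4083 CPM. Cldn16 stood at 279 and 198 CPM in them and Kcnj10 at 240 and 153 CPM. The 158 and 170 in clusters 6 and 7 had 1189 and 1280 CPM at median depths of 6127 and 5412 counts, and 3661 and 4468 CPM of Slc34a1, the proximal tubule's phosphate transporter. The part of these clusters in the cortical α level was not tested. Leaving out barcodes with 3 or more counts of markers of other cells, in any cluster, gave an Fxyd2 level of 2813 CPM in α, 3750 CPM in β and 762 CPM in MD nuclei of the cortex, in the same order.

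Of the 18 other genes of the pump list, 5 reached 50 counts over both libraries and the other 13 had from 1 to 46. The other β subunits Atp1b2 and Atp1b4 had 19 and 1. Among the FXYD genes, Fxyd1, Fxyd3, Fxyd5, Fxyd6 and Fxyd7 had 2 to 46 counts, and Fxyd4, a collecting duct regulator, had 195. Fxyd4 stood at 3.39 to 13.3 CPM in the classes and was 2.65 times as high in β as in α nuclei of the cortex (1.62 to 4.43, 47 against 27 counts). Principal cell markers moved with it, at 34.6 CPM in β and 8.29 CPM in α nuclei of the cortex over 3 genes, and their part was not tested.

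Atp4a, the catalytic subunit of the gastric proton pump, had 1171 counts. Its level in cortex was 64.5 CPM in α, 55.7 CPM in β, 24.2 CPM in γ and 21.0 CPM in MD nuclei. In medulla it was 24.3 CPM in α, 27.9 CPM in β, 2.87 CPM in γ and 48.2 CPM in MD nuclei, the last from 8 counts. The medullary γ to α ratio was 0.118 (0.0755 to 0.178), and the medulla to cortex ratio in α nuclei was 0.377 (0.321 to 0.441). Its β subunit Atp4b had 4 counts. Of the Nkain genes, named for proteins that interact with pump β subunits, Nkain1 was 2.16 times as high in β as in α nuclei of the cortex (1.66 to 2.83) and 2.22 times in medulla (1.13 to 4.17), and Nkain3 was at 0.546 (0.430 to 0.688) and 0.557 (0.350 to 0.850). Nkain2 had ratios of 1.16 and 0.845 with intervals that held 1.

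Salt transport partners of the pump in the same cells did not all move with the members. Kcnj1, the apical potassium channel ROMK, was at 0.766 of the α level in β nuclei of the cortex (0.726 to 0.808). In medulla it was at 0.739 (0.689 to 0.792). In these comparisons Fxyd2 had ratios of 1.18 and 1.56, and Atp1b3 of 1.23 and 0.751. Atp1b1 had 0.883 and 0.798, on the side of Kcnj1. The medulla to cortex ratio of Kcnj1 in α nuclei was 1.36 (1.31 to 1.42), against 0.640 for Fxyd2 and 1.19 for Atp1b1. Slc12a1 had a ratio of 1.35 there (1.34 to 1.36), but it set which barcodes entered. Bsnd, which encodes barttin, was at 0.665 between the libraries in α nuclei (0.591 to 0.748), on the side of Fxyd2. Its β to α ratio was 0.833 in cortex (0.730 to 0.950), opposite to Fxyd2, and 1.21 in medulla (0.978 to 1.48). In MD nuclei of the cortex Bsnd was at 0.434 of the α level (0.327 to 0.567) and Kcnj1 at 0.753 (0.692 to 0.819).

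Likeness of pattern was measured as Pearson's r of log2(CPM + 1) over the 8 groups of class and library, among 5293 genes with 50 CPM or more in any group. The groups of a library share its preparation, so r is a description. It does not measure the size of change. Among the genes named next, the log2 range over the groups ran from 0.287 (Hp1bp3) to 4.45 (Gm41496). Nearest to Fxyd2 were Aff1 (0.984), Arhgap24 (0.983), Abhd17c (0.983), Ipcef1 (0.982) and Ivd (0.978). Among the nearest to Atp1b1 were Kcmf1 (0.986), Ciapin1 (0.985), D5Ertd579e (0.981) and Ptpn18 (0.981). For Atp1b3 they included Tfdp2 (0.978), Hp1bp3 (0.973), Gm41496 (0.972) and Apela (0.968). Between the members r was 0.600 for Atp1b1 and Atp1b3, 0.597 for Atp1b1 and Fxyd2 and −0.108 for Atp1b3 and Fxyd2.

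Genes that overlap the members could share reads with them. Nme7 lies on the opposite strand and shares 620 bases with Atp1b1. It had 95.8 to 114 CPM in every class but medullary MD nuclei (66.3 CPM, 11 counts, interval 33.1 to 119 CPM). Gm32391, also opposite to Atp1b1, had 10 and 22 counts. GENCODE M39 places Gm68867 on the strand of Atp1b3 and Gm68814 opposite to Fxyd2, and neither is among the genes counted. Whether the counting used strand is not given in the sources used here, so reads from these loci and the members cannot be told apart.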

How the data were processed

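Nuclei of 1 cortex and 1 medulla library were measured by single-nucleus RNA-seq with PIPseq chemistry. The authors aligned the reads to GRCm39 and counted molecules per gene and barcode with PIPseeker, and the submitters' processing notes also name bcl2fastq and Seurat 4.4.0. Beyond the genome build, no gene annotation release was identified in the sources used here. The deposited values are raw counts, before the authors' doublet removal, ambient RNA correction and normalization. Filtered matrices were analysed in Python 3.11.15 (numpy 2.4.6, scipy 1.17.1, pandas 2.3.3). Unfiltered matrices gave the free-RNA profile, the deposited cluster numbers an alternative grouping, and embedding coordinates were not used. In that grouping a cluster was α unless MD, β or γ nuclei made up at least 40% of its nuclei.

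Counts were summed per class and library with no filter on nuclei beyond the marker rule and no gene filter. Since nuclei of a library are not replicates, neither p-values nor standard errors were computed. Doublets were kept in the reported values. A ratio needed 50 nuclei in each class. The members, gene lists, rule and tests were chosen with earlier results of these data known. The named genes were the members, 18 other pump genes, 5 salt transport partners, the 5 genes most like each member, genes overlapping a member, and class and cell type markers. The code was tested on simulated counts. Of 10 alternatives, 9 were set before the matrices were opened and 1, leaving out barcodes with 3 or more counts of markers of other cells, was chosen after seeing the data. Coordinates came from GENCODE M39 on GRCm39 and promoters from RefSeq (GRCm38.p6), where 2 of 3 members matched. Some of the named genes are not reported here.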

Additional observations from a re-analysis of the deposited data

Results flagged for a closer look

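Atp1b3 was higher in β than in α nuclei of the cortex (ratio 1.23, 1.04 to 1.46) and lower in the medulla (0.751, 0.604 to 0.926), which put the libraries on opposite sides of 1. Its MD to α ratio was also above 1 in cortex (1.09) and below 1 in medulla (0.708), with intervals that both held 1. The cortical value was 0.880 after thinning, and the medullary value was 0.394 (0.144 to 0.862) with deposited clusters, from 6 MD counts. The difference between the libraries was not tested in either case, with 1 library each, and medullary MD nuclei held 9 Atp1b3 counts. Medullary α nuclei were also mixed, with 48.8, 92.0 and 130 CPM of Atp1b3 in deposited clusters 1, 3 and 4. Medullary β nuclei had 57.5 CPM, so the side of 1 differed with the α nuclei taken.

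All 3 members had counts in barcodes that the comparisons did not use, above the 3 counts that a count of 0 allows. Barcodes called as nuclei with fewer than 10 Slc12a1 counts, 224 in cortex and 154 in medulla, held 1178 and 851 CPM of Atp1b1, 46.7 and 40.7 CPM of Atp1b3 and 646 and 222 CPM of Fxyd2. Unfiltered barcodes with 1 to 50 counts held 2278 and 3349 CPM of Atp1b1, 45.1 and 95.4 CPM of Atp1b3 and 2678 and 1775 CPM of Fxyd2. For each member the library with the higher level in these unfiltered barcodes was also the library with the higher level in α nuclei.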

How the results depend on the processing

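Of 270 ratios recomputed, 27 under each of 10 alternatives, 203 stayed within the reported 95% interval and 63 lay outside it on the same side of 1. Ratios on the other side of 1 numbered 8, and the cause was not tested. Where the reported interval excluded 1, the 4 that crossed were Atp1b1 β to α in cortex (1.02 with deposited clusters), Atp1b1 medulla to cortex in β nuclei (0.978 with deposited clusters and 0.992 without barcodes that held markers of other cells) and Atp1b3 β to α in medulla (1.10 after thinning). The intervals of these recomputed values all held 1. Where it held 1, the 4 that crossed, all inside that interval, were Atp1b3 MD to α in cortex (0.880 after thinning) and Atp1b3 medulla to cortex in MD nuclei (0.925 with doublets removed, 0.698 after thinning and 0.750 with deposited clusters). A minimum of 500 genes and a maximum of 5% mitochondrial counts moved none.

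For Fxyd2 MD to α in cortex the values were 0.222 with doublets removed, 0.319 with stricter markers, 0.257 after thinning, 0.259 with ambient RNA subtracted, 0.222 with deposited clusters and 0.271 without barcodes that held markers of other cells. In medulla it was 0.240 with ambient RNA subtracted. Fxyd2 β to α in cortex was 1.22 with doublets removed, 1.13 with α nuclei free of class markers, 1.24 with γ assigned before β, 1.27 after thinning, 1.54 with deposited clusters and 1.33 without barcodes that held markers of other cells. In medulla it was 1.65 with stricter markers, 1.92 with γ first, 1.67 after thinning, 1.63 with ambient RNA subtracted and 1.67 with deposited clusters. Fxyd2 γ to α in medulla was 0.895 with γ first, 0.864 after thinning, 0.809 with ambient RNA subtracted and 0.887 with deposited clusters, and γ to β was 0.50, 0.467 and 0.496 with stricter markers, γ first and ambient RNA subtracted. The γ group of deposited clusters included clusters 8 and 10, where α nuclei were 50.7% and 43.0% of barcodes and γ nuclei 49.0% and 43.0%. Its medulla to cortex ratio in α nuclei was 0.666 with median-ratio scaling, 0.624 with α free of markers, 0.599 after thinning, 0.694 with deposited clusters and 0.562 without barcodes that held markers of other cells. In β nuclei it was 0.897 with stricter markers, 0.988 with γ first, 0.789 after thinning, 0.753 with deposited clusters and 0.677 without those barcodes. In MD nuclei it was 0.809 with doublets removed and 0.959 with deposited clusters.

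Atp1b1 MD to α in cortex was 0.528 with doublets removed, 0.519 after thinning, 0.516 with ambient RNA subtracted, 0.539 with deposited clusters and 0.505 without barcodes that held markers of other cells, and in medulla 0.440 with median-ratio scaling and 0.458 with ambient RNA subtracted. Atp1b1 β to α was 0.852 in cortex with α free of markers, and 0.766 and 0.755 in medulla with ambient RNA subtracted and with deposited clusters. Atp1b1 γ to α was 0.956 with γ first and 0.919 with deposited clusters, and γ to β was 1.17 with γ first and 1.27 with ambient RNA subtracted. Atp1b1 medulla to cortex in α nuclei was 1.24 with median-ratio scaling, 1.14 with α free of markers, 1.15 after thinning, 1.16 with ambient RNA subtracted, 1.32 with deposited clusters and 1.09 without barcodes that held markers of other cells, and in β nuclei 1.01 after thinning and 1.02 with ambient RNA subtracted. The cortical α group of deposited clusters held clusters 6 and 7, with 1312 and 1390 CPM of Atp1b1. Atp1b3 was 1.47 for β to α in cortex without those barcodes, 1.11 for γ to β and 1.69 for medulla to cortex in β nuclei after thinning, and 1.11 for γ to α with deposited clusters.

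No paired analysis was possible because each region had 1 library, and there was no replicate to leave out. The cortical γ class had 0 nuclei with deposited clusters. Automatic doublet calling marked 6.60% of cortical and 0.0369% of medullary barcodes, so in medulla the top 5% by score were left out. Thinning left out 0 cortical and 23 medullary nuclei. Atp1b3 had 9 counts in medullary MD nuclei, and 2 after thinning, which limits those comparisons.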
